A study of Mus musculus with 2 samples.

Results

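Ribosome biogenesis genes and the transcription factor gene Myc were followed in B16 F10 cells, a mouse melanoma line that makes melanin. The set holds 32 genes chosen by symbol, out of 32285 genes in the count matrix, and each symbol matched 1 gene. The high pigment library and the low pigment library were the 2 groups, both from unmodified B16 F10 cells given no treatment that the labels name. Both came from cultures seeded at 100 cells per cm2, grown for 7 days with 10% serum and separated by side scatter in a flow cytometer, so pigment was read from light scatter and not from melanin itself. Each sorted fraction gave 1 library of single-cell 3′ RNA counts, so no difference below has a replicate check, no test between groups was made, and every interval is a 95% interval that covers counting error only.

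Ribosomes are built in the nucleolus, where RNA polymerase I transcribes the precursor of the ribosomal RNAs. Small nucleolar ribonucleoproteins (snoRNPs) modify and help cut that precursor, while separate sets of assembly factors fold it into the small (40S) and the large (60S) subunit. Myc, a transcription factor of the basic helix-loop-helix family that pairs with Max, binds the E-box motif CACGTG and is known to drive many genes of this programme together with genes for polyamines, nucleotides and translation.

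In the cells kept by the authors, the high pigment library had 2136 cells and 28848691 unique molecular identifiers (UMIs, 1 per captured RNA molecule), and the low pigment library 1900 cells and 32437194 UMIs. The median cell had 12557 UMIs in the high pigment library and 16019.5 in the low pigment library, with 5.07% and 5.62% of UMIs from mitochondrial genes. No cell barcode was shared by both. The melanocyte markers Mitf, Sox10, Pmel, Mlana, Dct, Tyrp1 and Tyr were detected in both libraries and summed to 14732 CPM (UMIs of a gene per 1000000 UMIs of its library) in the high pigment and 11243 CPM in the low pigment library. Dct gave most of the sum, at 8011 CPM in high pigment and 5856 CPM in low pigment cells. Mitf, Sox10, Mlana and Tyrp1 were also higher in the high pigment library. Pmel (1286.1 against 1432.5 CPM) and Tyr (122 against 126 CPM) went the other way. The defining markers of fibroblasts, leukocytes, keratinocytes and erythroid cells summed to at most 2.11 CPM per list in either library. Of the endothelial markers, Pecam1 had 81 UMIs in the high pigment and 726 in the low pigment library, while the other 4 had at most 3 UMIs each.

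To show what the members share in sequence, CACGTG was searched in RefSeq promoter windows of 250 bases before to 50 bases after each gene start (build GRCm38.p6). The motif reads the same on both strands. A window was found for 25 of the 32 members, and none for Bop1, Fbl, Myc, Npm1, Rrp12, Rrs1 and Srm. Of these 25 members, 7 (28%) held the motif in at least 1 window, against 12.8% of the 6246 measured protein-coding genes with a window and 8.09% of all 27025 genes in the table. Up to 12 bases to either side of the motif (capitals) are printed below on the strand of the gene, because these are the members whose promoter letters match the textbook Myc site. Eif4a1 (chr11:69672595-69672624, minus strand), both starts of Nme1 (chr11:93968273-93968302 and chr11:93968037-93968066, minus strand), Nop2 (chr6:125131811-125131840, plus strand) and Ran (chr5:129020026-129020055, plus strand) held it before the gene start. Mybbp1a (chr11:72441355-72441376, plus strand), Pes1 (chr11:3963965-3963994, plus strand) and Wdr43 (chr17:71616220-71616249, plus strand) held it just after the start.
Eif4a1: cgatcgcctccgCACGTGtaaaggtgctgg
Nme1, first start: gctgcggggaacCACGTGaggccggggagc
Nme1, second start: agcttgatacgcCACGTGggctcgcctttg
Nop2: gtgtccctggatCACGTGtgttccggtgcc
Ran: gctcggccggccCACGTGacccgccgcccc
Mybbp1a: gtcttctgagccCACGTGtttg
Pes1: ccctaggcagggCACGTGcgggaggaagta
Wdr43: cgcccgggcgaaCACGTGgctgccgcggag
A match describes letters only and says nothing of binding in these cells.

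The first comparison asks how much of each library's RNA came from these genes in strongly and in weakly pigmented cells. Summed over the 32 members, the RNA took 9268 CPM in the high pigment library and 9656 CPM in the low pigment library. A member was called where the CPM of one library was at most 0.8 times that of the other, a limit of size and not a test, and the ratio of CPM is given as high over low pigment. By it, 8 members (25%) were lower and 2 (6.25%) were higher in the high pigment library, against 23.4% lower and 10.9% higher among all 7849 measured genes (mean of at least 10 CPM, which all 32 members reached). At a stricter limit of 1.5-fold, 2 members (Nop56 and Polr1b) were lower and 2 (Ppan and Rrs1) higher, against 8.08% and 3.25% of measured genes. The median log2 ratio was −0.04 for the members and −0.08 for all measured genes. The share called lower is close to the background, so the list as a whole did not stand apart by size. Since bulk sums of cells are compared as shares of UMIs, fewer cells with the RNA and less RNA per cell cannot be told apart in these values.

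**Figure D1:**
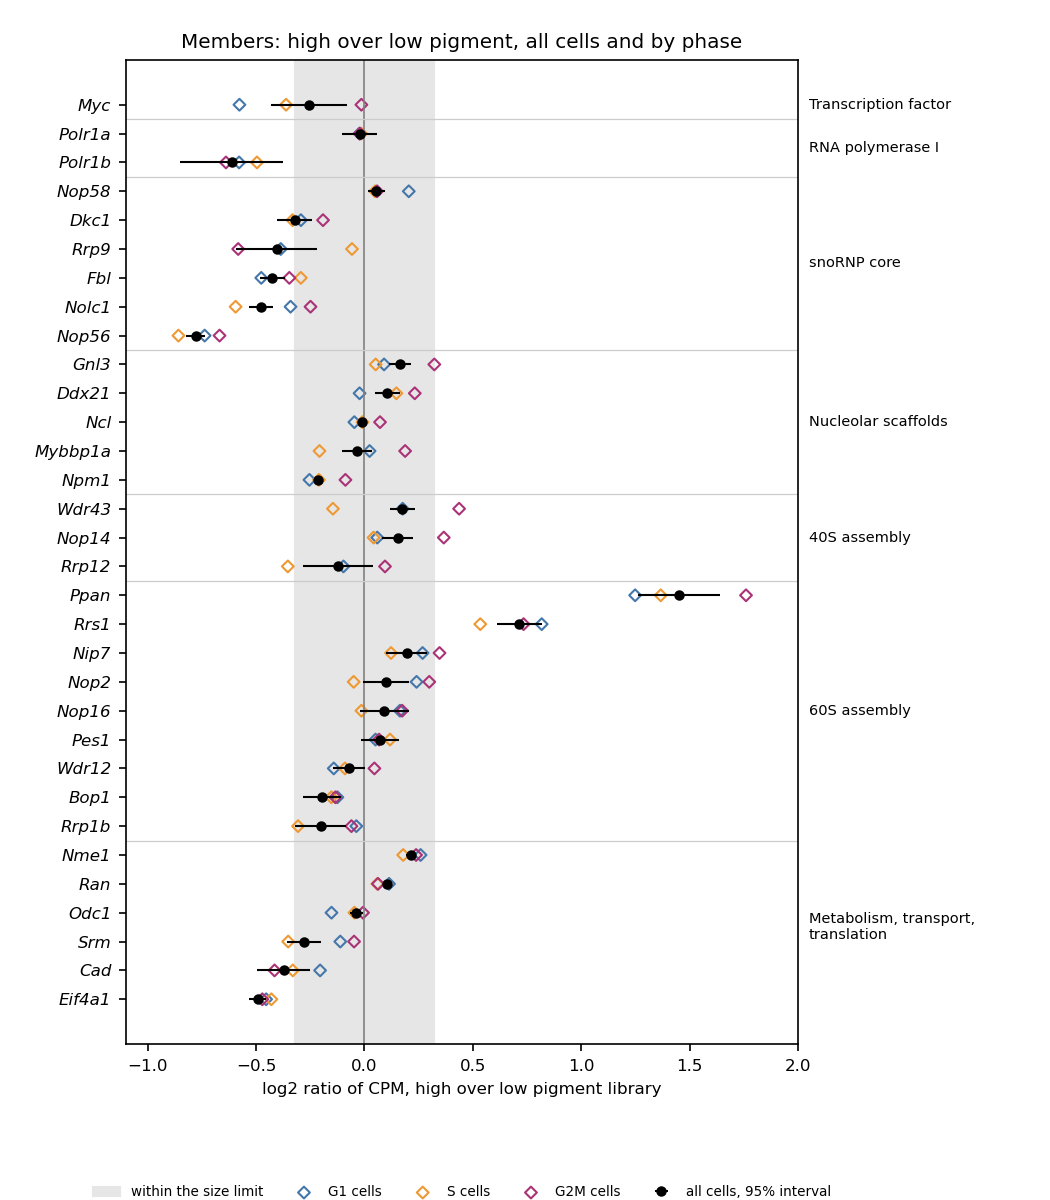
Log2 ratio of CPM, high over low pigment library (x axis), for each member (y axis, grouped by role): black points with 95% counting intervals are all cells, open diamonds are cells of 1 phase as the authors called it, and the grey band is the limit of size. Ppan and Rrs1 lie right of the band in every phase, Nop56, Polr1b and Eif4a1 left of it in every phase, and most other members lie inside it.

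Myc had 16.2 CPM (14.7–17.7) in the high pigment library and 19.3 CPM (17.8–20.8) in the low pigment library, from 466 and 625 UMIs. The ratio was 0.838 (0.742–0.947), an interval below 1 but inside the limit. Per cell this was 0.218 Myc UMIs in high pigment and 0.329 in low pigment cells, so most cells showed no Myc molecule at all.

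Of the 2 RNA polymerase I subunits, Polr1a, the largest subunit, had 79.2 CPM in high pigment and 80.5 CPM in low pigment cells (ratio 0.984, 0.930–1.04). Polr1b, the second largest subunit, had 8.15 against 12.5 CPM (0.654, 0.555–0.770). The call separated the 2 subunits of 1 enzyme, with Polr1b resting on 235 and 404 UMIs. A widely used S phase gene list contains Polr1b, and the sources used here do not name the list behind the authors' phase calls.

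The group labelled snoRNP core here held most of the lower calls, with 5 of 6 members lower, 1 neither and none higher. Among all measured genes 23.4% were lower. The group summed to 979 CPM in high pigment and 1253 CPM in low pigment cells. It takes in Rrp9 and Nolc1 and lacks core genes that are no members. Of those, Nhp2 (ratio 1.27) and Nop10 (1.26) were higher, and Snu13 (1.12) and Gar1 (0.859) passed neither limit. The lower calls are therefore not those of the whole snoRNP core. Nop56 (chromosome 2, 130274430 to 130279313, plus strand), a core protein of the box C/D snoRNPs that guide ribose methylation, had 219 CPM (213–224) in the high pigment library and 375 CPM (369–382) in the low pigment library. This ratio of 0.583 (0.565–0.601), or 1.72-fold lower, was the smallest of the 32 members. A high pigment cell held 2.95 Nop56 UMIs on average and a low pigment cell 6.40. Nop58 (chromosome 1, 59684971 to 59719044, plus strand), the partner of Nop56 in the same box C/D core, had 380 CPM in high pigment and 366 CPM in low pigment cells (ratio 1.04, 1.01–1.07), so the partners did not move together. Fbl (fibrillarin), the methyltransferase of that core, had 140 CPM in high pigment and 188 CPM in low pigment cells (0.745, 0.716–0.775).

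The other snoRNP genes of the set lay on the low side. Rrp9, a U3 snoRNP protein, had 13.5 CPM in high pigment and 17.9 CPM in low pigment cells (ratio 0.755, 0.663–0.860). Nolc1, a nucleolar phosphoprotein that chaperones snoRNPs, had 155 CPM in high pigment and 216 CPM in low pigment cells (0.718, 0.691–0.745). Dkc1 (dyskerin), the pseudouridine synthase of box H/ACA snoRNPs, had 72.2 CPM in high pigment and 90.3 CPM in low pigment cells. At 0.80 (0.756–0.846) Dkc1 only just passed the lower limit and was called, while Srm, described below with 0.824, did not reach it. With every cell thinned to 7500 UMIs, Dkc1 at a log2 ratio of −0.30, Rrp9 at −0.29 and Cad, described below, at −0.26 no longer passed the limit, while Nop56, Fbl and Nolc1 did. Dkc1 lost its call in all 7 alternatives of cells and scale, so that the snoRNP count of 5 rests on a value at the limit. Cad also lost its call in G1 cells, in the mean over phases and after centring ratios on the median gene. The exons of Nop56, Dkc1 and Rrp9 overlap those of Idh3b, Mpp1 and Parp3, all on the opposite strand. The labels do not state whether counting used strand, and the reads of such pairs were not checked. Members that were not called have such overlaps too, among them Gnl3 with Pbrm1, Wdr12 with Carf and Bop1 with Mroh1.

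None of the 5 nucleolar scaffold and regulator genes passed the limit. Ncl (nucleolin), a major nucleolar protein that binds pre-rRNA, had 1622 CPM in high pigment and 1637 CPM in low pigment cells (ratio 0.991, 0.978–1.00). Npm1 (nucleophosmin), a nucleolar chaperone, had 1813 CPM in high pigment and 2105 CPM in low pigment cells, a ratio of 0.862 (0.852–0.872) whose interval was narrow but inside the limit. Near-identical copies of Npm1 exist in the genome, so its count is uncertain. The range over the group ran up to 1.12 (1.08–1.16) for Gnl3 (nucleostemin), a nucleolar GTP-binding protein, and took in Ddx21, an RNA helicase, at 1.08 (1.03–1.12) and Mybbp1a, a nucleolar regulator of rRNA synthesis, at 0.976 (0.930–1.02).

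The 3 small subunit genes were inside the limit too. Wdr43, a processome component, had 167 CPM in high pigment and 148 CPM in low pigment cells (1.13, 1.08–1.17). Nop14, a processome protein, had a ratio of 1.11 (1.06–1.17) and Rrp12, which acts in late 40S maturation and export, 0.918 (0.821–1.03).

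Of the 9 large subunit genes, 2 were higher and 7 passed neither limit, and both went against the direction of most calls. Ppan (chromosome 9, 20888175 to 20892178, plus strand), the Peter Pan homolog required for large subunit maturation, had 27.2 CPM (25.3–29.2) in the high pigment library and 9.96 CPM (8.90–11.1) in the low pigment library, from 785 and 323 UMIs. The ratio of 2.73 (2.40–3.12) exceeded that of 99.9% of measured genes. After every cell was thinned to 7500 UMIs, 17.2% of high pigment and 7.26% of low pigment cells held a Ppan UMI. The same call held per cell without any scaling, at 0.368 Ppan UMIs in high pigment and 0.170 in low pigment cells. Its nearest genes on either side did not share the difference. Angptl6, 8448 bases upstream, had 7.80 CPM in high pigment and 10.5 CPM in low pigment cells (0.744, 0.626–0.883), and Eif3g, 2171 bases downstream, 103 CPM in high pigment and 123 CPM in low pigment cells (0.836, 0.796–0.876).

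Rrs1 (chromosome 1, 9545408 to 9547455, plus strand), which brings the 5S RNA particle into the large subunit, had 66.5 CPM (63.6–69.6) in high pigment and 40.5 CPM (38.4–42.8) in low pigment cells. The ratio of 1.64 (1.53–1.76) was above that of 98.2% of measured genes, and 38.3% of thinned high pigment cells held an Rrs1 UMI, against 24.7% of low pigment cells. Adhfe1, which starts 493 bases downstream of Rrs1 on the same strand, had 11.2 CPM in high pigment and 14.0 CPM in low pigment cells (0.802, 0.694–0.927). The other 7 large subunit genes ranged from 0.869 for Rrp1b, a nucleolar processing factor, to 1.14 for Nip7, a factor of 60S assembly. Pes1, Bop1 and Wdr12 form the PeBoW complex needed for 60S maturation, and their ratios were 1.05 (0.989–1.12), 0.873 (0.821–0.928) and 0.953 (0.906–1.00). The RNA methyltransferase gene Nop2 and the assembly factor gene Nop16 both had a ratio of 1.07.

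Among the 6 genes of growth metabolism, transport and translation, 2 were lower. Eif4a1, the RNA helicase of the cap-binding translation initiation complex, had 276 CPM (270–283) in high pigment and 389 CPM (382–396) in low pigment cells (ratio 0.711, 0.691–0.731). Cad, which carries the first 3 enzyme steps of pyrimidine synthesis, had 32.5 CPM in high pigment and 42.1 CPM in low pigment cells (0.772, 0.710–0.840). Odc1 and Srm make polyamines. Odc1 had 573 CPM in high pigment and 589 CPM in low pigment cells (0.973, 0.953–0.994), and Srm 77.5 CPM in high pigment and 94.0 CPM in low pigment cells (0.824, 0.780–0.870). Nme1, a nucleoside diphosphate kinase, came closest to the upper limit from below, with 1207 CPM in high pigment and 1041 CPM in low pigment cells (1.16, 1.14–1.18). Ran, the GTPase of nuclear transport, had a ratio of 1.07 (1.06–1.09). Nme1, Ran and Eif4a1 have close relatives or processed copies, so their counts are uncertain.

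Many ribosome biogenesis genes carry small nucleolar RNAs in their introns. By the GENCODE annotation of GRCm38, 9 of the 32 members (28.1%) host 25 snoRNAs on their own strand, against 2.23% of 7717 measured protein-coding genes. These were Ncl, Nop56, Nop58, Dkc1, Gnl3, Wdr43, Odc1, Eif4a1 and Ppan. They included both the lowest and the highest ratio of the set, with 3 hosts lower, 1 higher and a median log2 ratio of −0.01, while the 23 members without a snoRNA had 5 lower, 1 higher and a median of −0.07. Of the 7 members with CACGTG in a promoter window, 1 (Eif4a1) was lower and none was higher, with a median log2 ratio of 0.10.

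Cells were next compared within the cell cycle phases that the authors assigned from expression. In the high pigment library 33.1% of cells were called G1, 22.4% S and 44.4% G2M, and in the low pigment library 39.4%, 37.1% and 23.5%, so the mix of phases differed between the libraries. Depth differed too, with a median of 10466, 11753 and 14087 UMIs per cell in high pigment cells of G1, S and G2M, and 13817, 16663 and 20280 in low pigment cells. The part of depth in these values was not tested beyond the thinned values given with the processing alternatives.

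Within phases, Nop56, Polr1b and Eif4a1 were lower, and Ppan and Rrs1 higher, in high pigment cells of all 3. In G1 cells 7 members were lower and 2 higher, against 25.8% lower and 12.4% higher among all measured genes. In S cells 9 were lower and 2 higher, against 22.3% and 13.6%. In G2M cells 6 were lower and 6 higher, against 25.8% and 11.3%, and the 4 added higher calls were Gnl3, Wdr43, Nop14 and Nip7. The Nop56 ratio was 0.600 in G1, 0.552 in S and 0.629 in G2M cells, and the Ppan ratio 2.38, 2.58 and 3.39. The Rrs1 ratio was 1.76, 1.45 and 1.66. For Myc, the ratio was 0.670 (0.547–0.820) in G1 and 0.778 (0.581–1.03) in S cells, both past the lower limit, and 0.990 (0.809–1.22) in G2M cells. The counts behind the S value were 69 Myc UMIs in high pigment and 182 in low pigment cells.

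Across phases within a library, some members took a larger share of RNA in S than in G1 cells, and Myc went the other way in both libraries. In high pigment cells 7 members (21.9%) were higher in S than in G1 and 1 (3.1%) was lower, against 16% and 7.4% of measured genes. In low pigment cells 9 (28.1%) were higher and 1 (3.1%) was lower, against 14.1% and 11.4%. The share higher thus lay near that of all genes in high pigment cells, and the phases were themselves called from expression. The median log2 ratio of S over G1 was 0.11 for members and 0.02 for all measured genes in high pigment cells, and 0.15 and −0.03 in low pigment cells. Nop56, Nop58, Dkc1, Rrp1b, Nolc1 and Cad were higher in S in both libraries. Nop58 had 320, 456 and 385 CPM in G1, S and G2M cells of the high pigment library and 277, 440 and 370 CPM in those of the low pigment library. Cad had 26.3, 40.6 and 32.8 CPM in the high pigment library and 30.3, 51.1 and 43.7 CPM in the low pigment library, and Rrp1b 28.7, 42.9 and 36.9 CPM against 29.5, 53.1 and 38.4 CPM. In all 3 genes G1 was the lowest phase and S the highest in either library.

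Myc had 17.4 CPM (14.8–20.4) in G1, 11.4 CPM (8.87–14.4) in S and 17.4 CPM (15.3–19.7) in G2M cells of the high pigment library. In the low pigment library it had 26.0 CPM (23.0–29.2), 14.6 CPM (12.6–16.9) and 17.6 CPM (15.0–20.5). S was the lowest phase in both, and S over G1 was 0.654 (0.485–0.875) in high pigment and 0.564 (0.465–0.682) in low pigment cells. G2M over G1 was 1.00 (0.813–1.23) in high pigment and 0.677 (0.554–0.824) in low pigment cells. From G1 to G2M, 1 member was higher and none lower in high pigment cells, against 12.4% and 4.13% of measured genes. In low pigment cells 3 were higher and 2 lower, against 15.7% and 9.07%, and the lower ones were Myc and Ppan. Gnl3 was on the low side in S in both libraries, within the limit, with S over G1 at 0.909 (0.843–0.980) in high pigment and 0.934 (0.879–0.991) in low pigment cells. Ppan, whose S over G1 intervals included 1 in both libraries, had 27.8, 25.1 and 27.7 CPM in G1, S and G2M cells of the high pigment library and 11.7, 9.74 and 8.19 CPM in those of the low pigment library. S over G1 for Wdr43 was 0.862 (0.792–0.938) in high pigment and 1.08 (1.01–1.15) in low pigment cells.

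**Figure D2:**
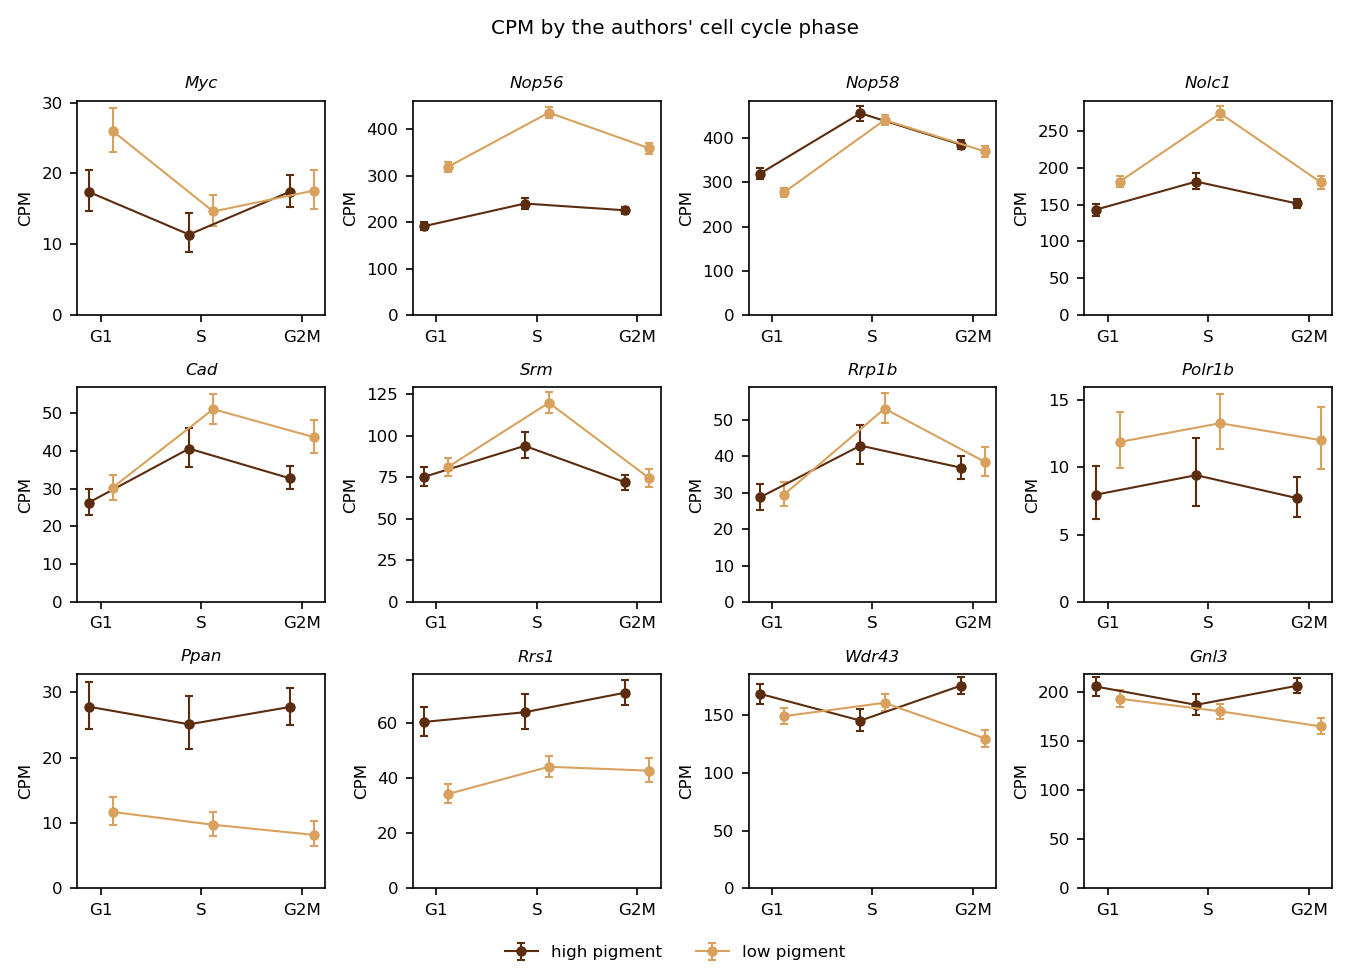
CPM (y axis, from 0) in cells of G1, S and G2M (x axis) for 12 members, with high pigment and low pigment libraries as separate lines and 95% Poisson counting intervals as bars. Myc is lowest in S in both libraries, though its S and G2M intervals overlap in the low pigment library, while Nop58, Cad and Rrp1b peak in S. The lines for Ppan, Rrs1 and Nop56 stay apart in every phase.

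The authors' deposited table also places cells in 4 clusters, which were made from expression of genes that may include these, so cluster levels are a description only. Clusters split largely by library. High pigment cells fell in cluster 0 (1520 cells, 14.3% called G1) and cluster 3 (523 cells, 89.1% G1), and low pigment cells in cluster 2 (822 cells, 0.365% G1) and cluster 1 (1023 cells, 70.3% G1). Clusters 3 and 1 thus held mostly cells called G1 and clusters 0 and 2 mostly cells called S or G2M, which rests on the phase calls alone.

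Myc had 14.0 CPM (12.5–15.6) in high pigment cluster 0 and 25.9 CPM (21.8–30.6) in high pigment cluster 3, and 13.6 CPM (11.9–15.6) in low pigment cluster 2 and 25.2 CPM (22.7–27.8) in low pigment cluster 1. The ratio of high over low pigment for Myc was 1.03 between clusters 0 and 2 and 1.03 between clusters 3 and 1, where that between all cells called G1 was 0.670. Nop56 differed by library, with 213 and 222 CPM in high pigment clusters 0 and 3 and 408 and 345 CPM in low pigment clusters 2 and 1. Ppan likewise split by library, with 27.0 and 29.6 CPM in the high pigment clusters and 8.84 and 10.5 CPM in the low pigment clusters, as did Rrs1 with 66.7 and 68.4 against 44.1 and 35.8 CPM. Cad moved with both, at 34.2 CPM in high pigment cluster 0, 24.96 in high pigment cluster 3, 49.99 in low pigment cluster 2 and 34.2 in low pigment cluster 1.

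For high pigment cluster 0 over low pigment cluster 2, 10 members were lower and 2 higher, against 29% and 12.4% of measured genes. For high pigment cluster 3 over low pigment cluster 1, 4 were lower and 4 higher, against 20.1% and 12.5%. The lower ones were Nop56, Fbl, Polr1b and Cad, and the higher ones Nop2, Nip7, Ppan and Rrs1.

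**Figure D3:**
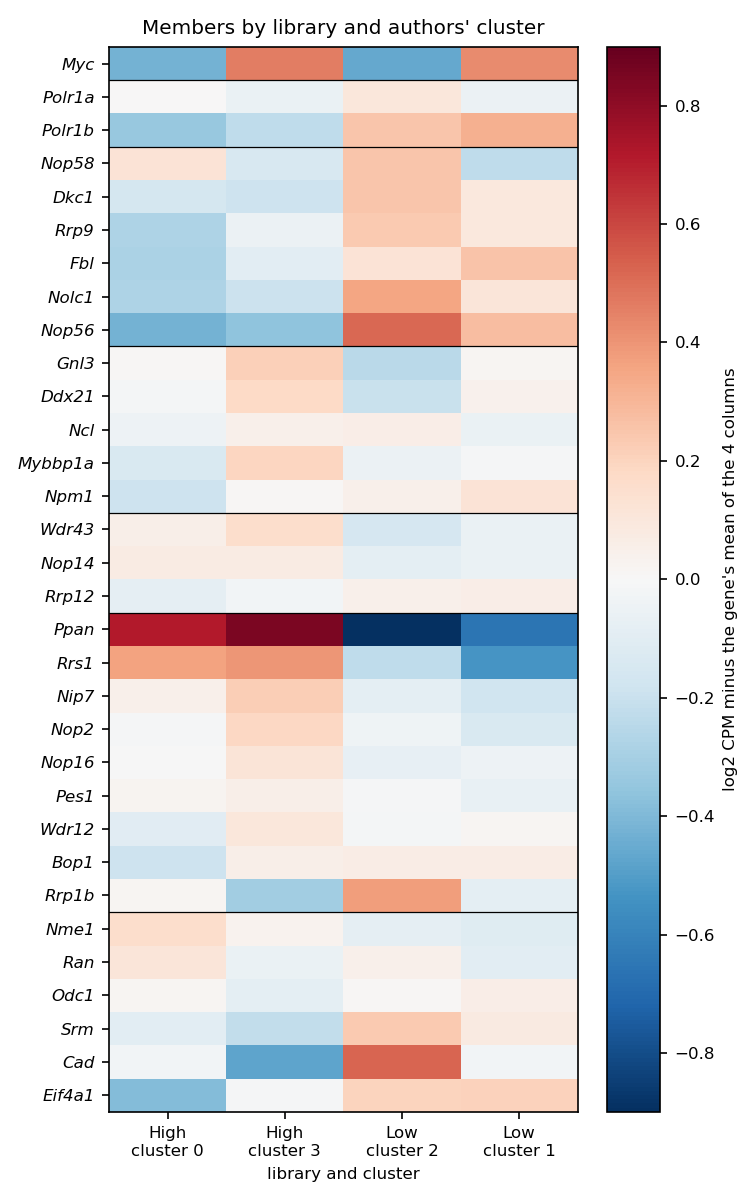
Log2 CPM of each member (rows) minus its mean over the 4 main clusters (columns: high pigment clusters 0 and 3, low pigment clusters 2 and 1), from blue (low) to red (high). Ppan and Rrs1 are high in both high pigment columns, Nop56 and Polr1b in both low pigment columns, and Myc in clusters 3 and 1.

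Co-variation with Myc in single cells was read by Spearman's rho across cells of 1 library after thinning each to 7500 UMIs. At that depth 243 of 2136 high pigment cells (11.4%, exact interval 10.1–12.8) and 240 of 1900 low pigment cells (12.6%, 11.2–14.2) held a Myc UMI, with a mean of 0.129 and 0.147 Myc UMIs per cell. Before thinning the shares were 17.4% and 24.8%, so the gap narrowed once depth was equal. Cells of a library share its preparation and are no replicates, and so rho is given with no p.

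The values were weak in both libraries. In high pigment cells the median rho of the other 31 members with Myc was 0.024, from −0.033 for Nme1 to 0.067 for Ncl, with 26 of 31 above 0. In low pigment cells the median was 0.0014, from −0.048 for Rrp9 to 0.071 for Wdr43, with 17 of 31 above 0. Over all measured genes the median was 0.003 in high pigment and 0.0007 in low pigment cells, and the central 95% of genes ran from −0.044 to 0.052 and from −0.049 to 0.054. Above that range lay 4 members in high pigment and 2 in low pigment cells, and none lay below it. At counts this sparse such values are no finding of co-variation for any single member.

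**Figure D4:**
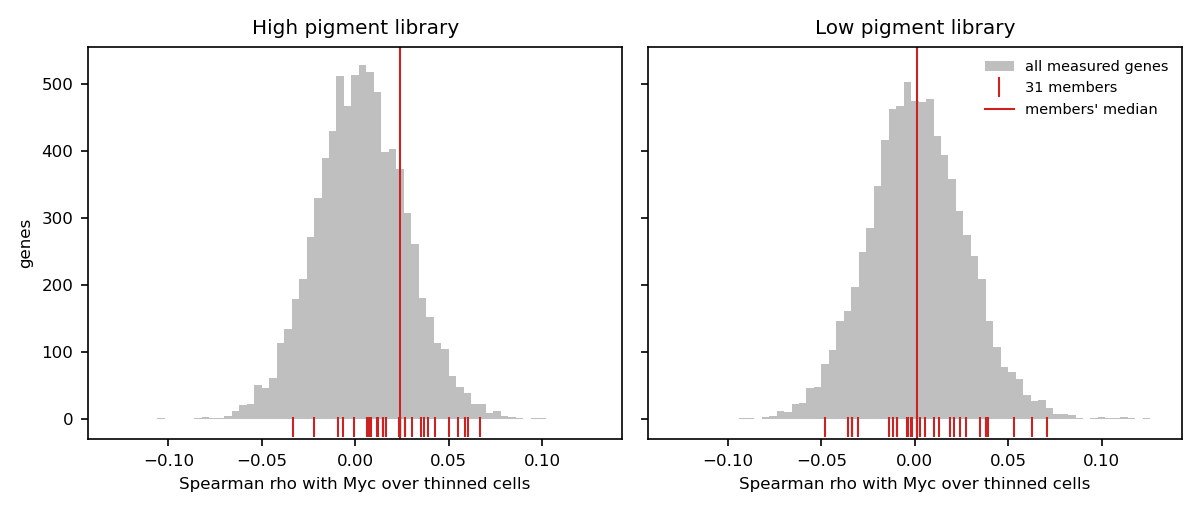
Histogram of Spearman's rho with Myc across thinned cells (x axis) over all measured genes (y axis, number of genes), one panel per library with high pigment first, with 1 tick for each of the 31 other members and a red line at their median. Most ticks lie within the central 95% of all genes, with 4 above it in the high pigment and 2 in the low pigment panel, and the members' median is 0.024 in high pigment and 0.0014 in low pigment cells.

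Summed over the 31 members, cells with a Myc UMI held 73.8 ± 18.6 member UMIs and cells without one 69.1 ± 16.6 in the high pigment library (SD over cells of the thinned library). In the low pigment library the sums were 73.5 ± 16.1 with and 71.5 ± 15.2 without a Myc UMI. The ratio of the means was 1.07 in the high pigment and 1.03 in the low pigment library. The rho of Myc with the sum was 0.083 in high pigment and 0.039 in low pigment cells, with no sum of other genes set beside it. By phase it was 0.102 in G1, 0.039 in S and 0.099 in G2M cells of the high pigment library and 0.098, 0.044 and 0.005 in those of the low pigment library. In summed counts, cells with a Myc UMI over cells without one gave 1 member higher and none lower in the high pigment library, against 7.82% and 6.86% of 7848 genes. In the low pigment library 1 was higher and 1 lower, against 6.98% and 8.35%. The higher one was Rrp9 in high pigment cells (1.34, 0.901–1.93), whose ratio was 0.594 (0.356–0.938) in low pigment cells, so its direction did not repeat. The other was Rrs1 in low pigment cells (1.32, 1.04–1.65).

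The 5 genes outside the set whose rho with Myc was highest in both libraries, ranked by the lower of the 2 values, were Pwwp2a, Rapgef2, Riox1, Vim and Dst. Pwwp2a had a rho of 0.098 in high pigment and 0.079 in low pigment cells, and Vim 0.060 and 0.115. All 5 values were weak. That they lay above the central range of all genes in both libraries follows largely from how they were picked, and is no sign of co-variation.

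Pairs of abundant members gave higher values. Over all 496 pairs the median rho was 0.033 in high pigment and 0.030 in low pigment cells, with 40 and 31 pairs above 0.1. No pairs or sums of other genes are set beside these values or the sums below, so they do not set the members apart. The highest pair in both was Ncl and Npm1, at 0.370 in high pigment and 0.212 in low pigment cells. With the sum of the other members, Myc left out, rho was 0.452 in high pigment and 0.287 in low pigment cells for Npm1, 0.423 and 0.358 for Ncl, and 0.289 and 0.276 for Nop58. Cad, at 0.030 and 0.069, and Bop1, at 0.041 and 0.045, were among the lowest, and the members with few UMIs per cell have little room for a high rho.

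Wider lists of the same pathways, holding none of the 32 members, had shares of calls close to those of all genes. Of their 186 measured genes, 40 were lower, 18 higher and 128 neither in the high pigment library, and their median log2 ratio was −0.12 against −0.08 for all measured genes, of which 23.4% were lower and 10.9% higher. In the RNA polymerase I machinery 4 of 15 genes were higher and 1 was lower (median log2 ratio 0.14). The highest was Ttf1, a terminator and regulator of rRNA gene transcription, at 19.5 CPM in high pigment and 13.9 CPM in low pigment cells (1.40, 1.24–1.59). The other higher genes, Polr2l (1.30), Polr2k (1.28) and Polr2f (1.26), and the lower one, Polr2h (0.756), encode subunits shared with other RNA polymerases. No Polr1 gene of this list was called, so apart from that of Ttf1 these calls are not particular to polymerase I. The snoRNP assembly and cofactor list held 13 genes, of which 4 were lower and 2 higher (median −0.20). In G1 cells alone the polymerase I median was 0.03 and the snoRNP assembly median −0.02, and with cells thinned the polymerase I median was 0.22. After centring ratios on the median gene these medians were 0.22 and −0.12. Ruvbl2, an ATPase that helps assemble box C/D snoRNPs, was lowest there, with 24.8 CPM in high pigment and 43.4 CPM in low pigment cells (0.571, 0.521–0.625). Nhp2 and Nop10, partners of Dkc1 in the box H/ACA core, were higher at 1.27 and 1.26.

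In purine and pyrimidine synthesis 7 of 13 genes were lower and none was higher, and the median log2 ratio of −0.42 was the lowest of the 11 lists. In G1 cells alone that median was −0.28. Ppat, which opens purine synthesis, had 37.7 CPM in high pigment and 60.9 CPM in low pigment cells (0.620, 0.575–0.668), and Adsl, a later purine enzyme, 42.3 against 64.8 CPM (0.653, 0.608–0.701). In polyamine metabolism 1 of 7 was lower and none higher, and that gene, Azin1, an antizyme inhibitor that spares the Odc1 protein, had a ratio of 0.685 (0.653–0.719). Of 48 small subunit processome genes 6 were lower and 3 higher, with Utp23 at 49.5 CPM in high pigment and 26.7 CPM in low pigment cells (1.85, 1.70–2.02). Of 37 other 60S genes 7 were lower and 2 higher, so the calls of Ppan and Rrs1 were not those of most large subunit factors. Translation initiation had 3 of 11 lower and 2 higher, the exosome 2 of 16 lower and 2 higher, the Ran cycle 1 of 6 each way, and non-coding snoRNA host RNAs 4 of 11 lower and 1 higher, with Snhg5 at 0.531 (0.485–0.581).

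In the Myc and Max network 4 of 9 measured genes were lower and 1 higher. Mxd1, which pairs with Max in place of Myc and represses, had 19.8 CPM in high pigment and 61.1 CPM in low pigment cells (ratio 0.324, 0.295–0.356), a wider gap than for any of the 32 members on the low side. Mnt, another Max partner that represses, had 9.74 CPM in high pigment and 20.3 CPM in low pigment cells (0.480, 0.416–0.553). Max had 39.5 CPM in high pigment and 36.5 CPM in low pigment cells (1.08, 0.995–1.17), and Mga, a further Max partner, 51.3 against 39.2 CPM (1.31, 1.21–1.41). Mxi1, also a Max partner, had 43.5 CPM in high pigment and 36.7 CPM in low pigment cells (1.19, 1.10–1.29) and passed neither limit. The Max partners thus did not all move the same way. Mycn and Mycl, the other Myc genes, had 0 and 0 UMIs in the high pigment library and 3 and 5 in the low pigment library, which is at or near the 3 UMIs that a count of 0 allows.

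**Figure D5:**
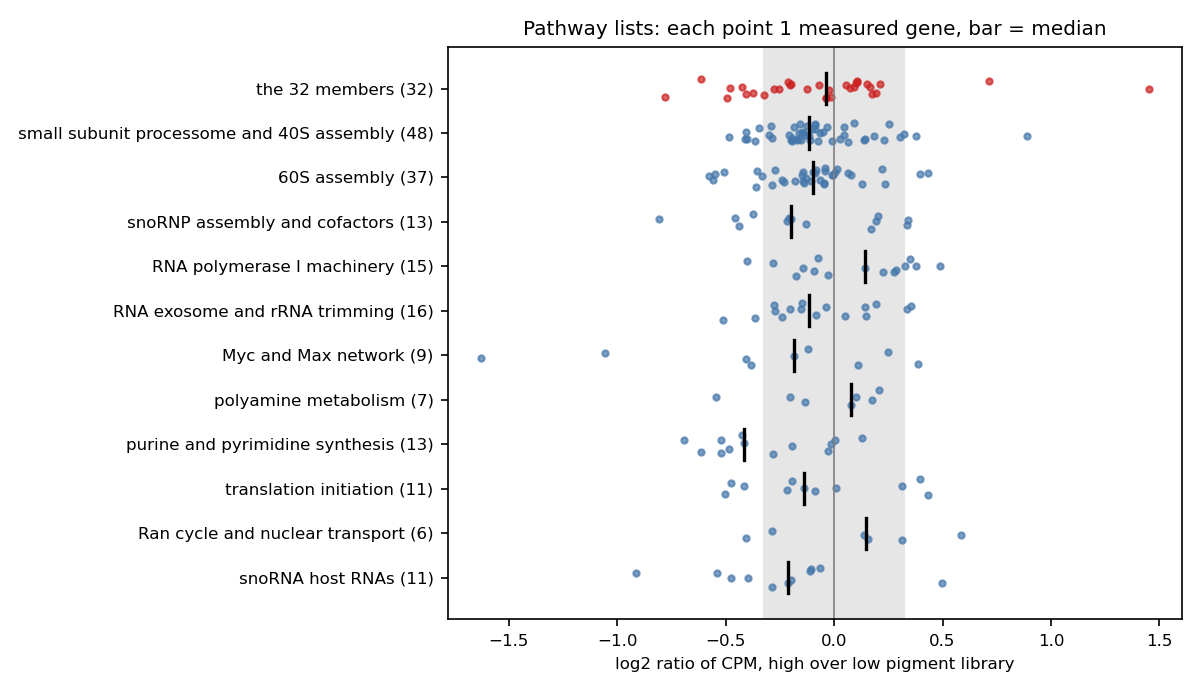
Log2 ratio of CPM, high over low pigment library (x axis), of each measured gene in the members' set (top row) and in 11 pathway lists (rows), with vertical bars at each list's median and grey shading inside the limit of size. The purine and pyrimidine list lies farthest left at a median of −0.42, and the polymerase I list right of 0 at 0.14.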

How the data were processed

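Single-cell 3′ RNA counts came from 1 high pigment and 1 low pigment library of sorted B16 F10 cells. Per the submitters' processing notes, Cell Ranger 6.1.2 and mm10 were used. The deposited matrix holds raw UMI counts per gene and cell barcode, and whether joining the libraries equalised their depth is not stated. The authors' deposited cell table gave the kept cells, phase calls and clusters, its percent mitochondrial values described depth, and its deposited phase scores were not used. The sources used here do not say how the authors filtered cells. Scrublet, run in scanpy 1.11.5, marked 0.702% of high pigment and 0.263% of low pigment cells, and such cells were kept.

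Counts were summed per library, phase or cluster and divided by total UMIs (CPM). Intervals of CPM were exact Poisson, of ratios exact conditional binomial and of shares exact Clopper-Pearson (scipy 1.17.1), all 95%. They cover counting error only. A count of 0 allows 3 UMIs, or 0.104 CPM in the high pigment and 0.0925 CPM in the low pigment library. With 1 library per group no test was run. Genes with a mean of at least 10 CPM were measured, and a CPM at most 0.8 times that of the other group was the size limit. The rules for naming genes were all 32 members, and for each list the 2 highest and 2 lowest ratios, of which some are given. The neighbours of Ppan and Rrs1, and Max, Mycn and Mycl, were added after their values were seen. Thinning, ratios and rho were checked on simulated counts. The members and lists were chosen with earlier results of these data known, and the searches for CACGTG and hosted snoRNAs were added after the data were seen.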

Additional observations from a re-analysis of the deposited data

Results flagged for a closer look

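For 3 members the direction of a ratio changed between phases or libraries, with counting intervals on opposite sides of 1. These differences were not tested over replicates, since each library is 1 sample. For Wdr43 the ratio of high over low pigment was 1.13 in G1, 0.904 in S and 1.35 in G2M cells, and its S over G1 ratio was 0.862 in high pigment and 1.08 in low pigment cells. For Mybbp1a the ratio of high over low pigment was 0.866 in S and 1.14 in G2M cells. For Ncl it was 0.968 in G1 and 1.05 in G2M cells, the smallest of these gaps.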

How the results depend on the processing

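No paired analysis was possible because each group had 1 library, and for the same reason no replicate could be left out. No call of a member changed direction. The median log2 ratio of the members, −0.04, became 0.043 when the median gene was set to a ratio of 1, a shift of 0.08. The count of 8 members lower in high pigment cells became 5 with every cell thinned to 7500 UMIs, 2 at a limit of 1.5-fold and 5 at a mean of at least 50 CPM, where 23 of 32 members were left. The count of 2 higher became 1 at the filter of 50 CPM, since Ppan fell below it, against 12.1% of all genes left there. The Myc log2 ratio, −0.25 over all cells, was −0.58 in G1 cells alone. With thinning, 2 members in place of 1 were lower in S than in G1 cells, in the high pigment and in the low pigment library alike. Ppan and Rrs1 were higher, and Nop56, Fbl, Polr1b, Nolc1 and Eif4a1 lower, in all 7 alternatives of cells and scale. In G1 cells alone the median of the Myc and Max network was 0.05 in place of −0.18 and that of polyamine metabolism −0.13 in place of 0.08. Depth limits Myc, Polr1b, Rrp9 and Ppan most.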

Other observations

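A few cells of each library fell in clusters made up mostly of the other, and their sums are values from few cells with no test. The 48 high pigment cells in cluster 1 had 337 CPM of Nop56 (289–391) and the 45 in cluster 2 had 319 CPM (273–370), both above the 213 and 222 CPM of high pigment clusters 0 and 3. Their Ppan levels were 15.3 CPM (6.62–30.2) in cluster 1 and 24.2 CPM (12.9–41.4) in cluster 2, with intervals that held the 27.0 and 29.6 CPM of the main high pigment clusters. The interval in cluster 1, from 8 UMIs, also held the 8.84 and 10.5 CPM of low pigment clusters 2 and 1, so it does not tell the 2 levels apart. The 36 low pigment cells in cluster 0 had 304 CPM of Nop56 (261–351) and 26.3 CPM of Ppan (15.0–42.6), while the 19 in cluster 3 had 291 CPM of Nop56 (229–364) and 11.5 CPM of Ppan (2.37–33.6), where low pigment clusters 2 and 1 had 8.84 and 10.5 CPM of Ppan.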
